A study of Drosophila melanogaster with 6 samples.

Results

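The muscle sarcomere set holds 32 *Drosophila melanogaster* genes that encode parts of the contractile unit of muscle or proteins that serve it. Its members were taken as the probe sets whose only annotated gene is 1 of the 32, which gave 39 of the 10893 non-control probe sets of the deposited table. The 39 probe sets stood for 25 genes, of which 17 had 1 probe set and 8 had several. *TpnC4*, *Mhc*, *Act57B*, *Tm1*, *wupA*, *TpnC47D* and *Zasp67* were not analysed here. Transcript levels had been measured in fly heads on 6 Affymetrix Drosophila 2.0 arrays, each hybridised with RNA from 1 pool of heads. The flies were labelled as *cbt* over-expression (OE), *cbt* RNAi (RNAi) or control (named cyo in the design text, with its meaning not given). Each genotype had 2 arrays, 1 at ZT15 and 1 at ZT3. The product of *cbt* (*cabut*) is a transcription factor with zinc fingers, and ZT (Zeitgeber time) counts hours from lights-on, so ZT15 lies in the night and ZT3 in the day. All flies had lived in light-dark cycles for several days, while their age, their sex, the driver and the transgenes are not given in the sources used here.

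A sarcomere contracts when thick filaments of myosin pull on thin filaments of actin. Tropomyosin and the troponin complex on the thin filament block this pull until calcium binds troponin C, and the sarcoplasmic reticulum ends it by pumping calcium back. Thin filaments are anchored in Z-discs, and giant titin-like proteins link Z-discs and thick filaments. Flies build different muscles from different members of the same families. *Act88F*, *fln* and *TpnC4* belong to the indirect flight muscle, which lies in the thorax, whereas head muscles move the mouthparts and pump food.

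The *cbt* signal went against the labels, so the genotypes are named here by label only. It was 9.90 at ZT15 and 8.98 at ZT3 on the OE arrays, 11.05 and 10.99 on the RNAi arrays, and 10.72 and 10.21 on the control arrays, in log2 units like every level below. Photoreceptor markers, which define head tissue, averaged 11.13 at ZT15 and 10.86 at ZT3 in OE heads. They averaged 11.64 and 11.66 in RNAi heads and 11.20 and 11.19 in control heads. By limma (adjusted p under 0.05) 8 of these 10 markers were lower in OE than in RNAi heads and 0 higher, against 25.8% of all probe sets. The OE ZT3 array stood apart from the other 5. All 11 digestive tract genes on the table (Jonah and trypsin proteases, *LysX* and *Npc2f*) were highest there, against 24.0% of all probe sets. Their summed linear signal was 359 at ZT15 and 9150 at ZT3 in OE heads, 258 and 284 in RNAi heads, and 271 and 447 in control heads. On the OE ZT3 array 0 of 10 neuron markers were at their highest, against the same 24.0%. These markers averaged 9.39 at ZT15 and 9.05 at ZT3 in OE heads, against 9.60 to 9.85 in RNAi and 9.68 to 9.74 in control heads. The middle 18S ribosomal RNA control probe set read 8.79 at ZT15 and 7.36 at ZT3 in OE heads. It read 10.77 and 10.68 in RNAi heads and 10.59 and 8.94 in control heads. The summed linear signal of 9 female reproductive genes (eggshell genes, *osk* and *bcd*) was 218 at ZT15 and 1030 at ZT3 in OE heads. It was 207 and 205 in RNAi heads and 188 and 268 in control heads. The part of these differences in the results below was not tested, nor was the presence of tissue from outside the head. In whole heads more or fewer muscle cells and more or less RNA per cell cannot be told apart.

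In OE heads the flight muscle actin *Act88F* stood above control at both times, and *fln*, *Act79B* and *Scp1* stood above it at ZT3 alone. Over all 39 members the median log2 difference of OE from control was -0.17 at ZT15 and 0.01 at ZT3. Over all probe sets it was 0.01 and -0.03. By role it was -0.01 and 0.63 over 6 thin filament and -0.23 and 0.40 over 6 thick filament probe sets. It was -0.20 and -0.26 over 7 titin-like, -0.23 and -0.16 over 8 Z-disc, and -0.07 and -0.0 over 10 calcium, anchoring and energy probe sets. *Act88F* read 7.67 at ZT15 and 9.63 at ZT3 in OE heads, 6.23 and 6.22 in RNAi heads, and 6.11 and 5.66 in control heads. Both OE arrays lay above all 4 others, and the RNAi and control arrays lay within 0.6 log2 units of each other. The mean was 8.65 ± 1.38 in OE heads and 5.89 ± 0.32 in control heads (SD, n = 2 each), a log2 difference of 2.76 ± 0.57 (SE, 95% interval 1.33 to 4.19) or 6.78-fold. That difference missed the threshold of 0.05 when all 10893 probe sets were tested with limma (Benjamini-Hochberg adjusted p = 0.0560). It passed under 5 of the 14 alternatives run, among them the fits without 1 OE array, where the lone OE array left has no spread of its own. The difference was 3.85 without the OE ZT15 array and 1.67 without the OE ZT3 array. Dropping a control array gave 3.47 (ZT15) or 2.05 (ZT3), and neither passed. It also passed with dim probe sets left out, but its RNAi and control arrays all lay below the 40th percentile of mean signal (6.79), so its mean cleared that filter only through the OE arrays.

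*fln*, which encodes the thick filament protein flightin, had a single high array. Its signal was 3.98 at ZT15 and 8.75 at ZT3 in OE heads, 4.02 and 3.99 in RNAi heads, and 4.15 and 3.81 in control heads. The other 5 arrays spanned 3.81 to 4.15, and the OE ZT3 array lay at least 24.4-fold above the next. That is a lower bound, since those 5 values lie below the 20th percentile of mean signal (5.17), among the dimmest of the table. The log2 difference of OE from control averaged 2.39 ± 1.25 and did not pass (limma, adjusted p = 0.278), and without the OE ZT3 array it was -0.09.

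**Figure D1:**
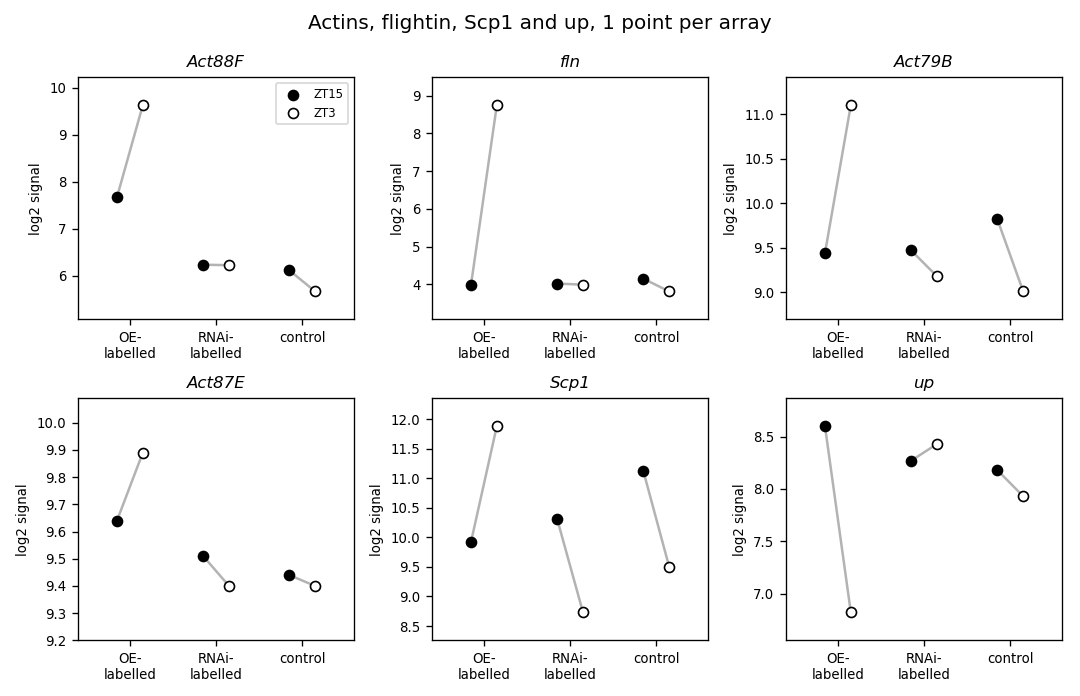
Log2 signal of 6 members on each array, with the OE-labelled, RNAi-labelled and control genotypes from left to right, ZT15 as filled and ZT3 as open points, and a grey line joining the arrays of 1 genotype. *Act88F*, *fln*, *Act79B* and *Scp1* are highest on the OE ZT3 array, *up* is lowest there, and only *Act88F* also stands apart on the OE ZT15 array.

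The actins differed in this respect. *Act79B*, the actin of tubular muscles, read 9.44 at ZT15 and 11.10 at ZT3 in OE heads, 9.47 and 9.18 in RNAi heads, and 9.82 and 9.01 in control heads. Only the OE ZT3 array stood apart, 2.42-fold above the next, and at ZT15 the OE value lay below control. The log2 difference of OE from control, 0.86 ± 0.57, did not pass (adjusted p = 0.377) and was -0.25 without the OE ZT3 array. *Act87E*, a further muscle actin, read 9.64 and 9.89 in OE heads, 9.51 and 9.40 in RNAi heads, and 9.44 and 9.40 in control heads at ZT15 and ZT3. Its OE arrays were the highest of the 6 by a small margin (0.35 ± 0.11, adjusted p = 0.130). The actin genes are near-identical in their coding parts and the *Act87E* probe set carries the Affymetrix mark for probe sets that match several transcripts, so signal could be shared among them.

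*Scp1*, which encodes a calcium-binding protein of the sarcoplasm, went in opposite directions at the 2 times. It read 9.92 at ZT15 and 11.88 at ZT3 in OE heads, 10.31 and 8.73 in RNAi heads, and 11.12 and 9.50 in control heads. The log2 difference of OE from control was thus -1.20 at ZT15 and 2.38 at ZT3, and the mean difference was 0.59 ± 0.90 (adjusted p = 0.709). Such a pattern, 1.5-fold or more in opposite directions at ZT15 and ZT3, was shown by 1 of the 39 members and by 0.0643% of all probe sets. Without the OE ZT3 array the difference was -1.19, and without the control ZT3 array -0.32. In such fits the lone array left of a genotype has no spread of its own.

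*up*, which encodes troponin T, had the reverse outlying array. It read 8.60 at ZT15 and 6.82 at ZT3 in OE heads, 8.27 and 8.43 in RNAi heads, and 8.18 and 7.93 in control heads. The OE ZT3 array was at least 2-fold below each of the other 5, which 1 member and 0.211% of all probe sets showed. In the opposite direction, at least 2-fold above each of the other 5, stood 3 members (*Act88F*, *fln* and *Act79B*) and 1.26% of all probe sets. The difference in *up* between OE and control was -0.34 (adjusted p = 0.660), and 0.52 without the OE ZT3 array.

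Both troponin C members, which encode the calcium sensors of the thin filament, were above control at ZT3 in OE heads. *TpnC73F* read 6.35 at ZT15 and 6.98 at ZT3 in OE heads, 5.84 and 6.02 in RNAi heads, and 6.30 and 6.15 in control heads. *TpnC41C* read 9.15 and 9.57 in OE heads, 8.88 and 8.73 in RNAi heads, and 9.66 and 8.79 in control heads at the same times. For *TpnC73F* both OE arrays lay above all others, while for *TpnC41C* the control ZT15 array was the highest. The log2 differences of OE from control were 0.44 (adjusted p = 0.226) and 0.14 (adjusted p = 0.795).

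Across the set, 0 of 39 probe sets passed between OE and control by limma, against 6.06% of all probe sets. At an unadjusted p under 0.05 there were 6, 3 higher and 3 lower, or 27.5% over all probe sets. The median difference was -0.03 over the members and -0.01 over all probe sets. Without a model, 1 member (*Act88F*) differed by 1.5-fold or more the same way at ZT15 and at ZT3, against 6.5% of all. At ZT3 alone 6 members were at least 1.5-fold higher in OE heads (*fln*, *Act88F*, *Scp1*, *Act79B*, *TpnC73F* and *TpnC41C*), against 8.48% of all.

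The remaining members lay nearer to control. The titin-like *Unc-89* (obscurin, an M-line protein, *Obsc* in RefSeq) read 8.57 at ZT15 and 8.51 at ZT3 in OE heads, 8.71 and 8.47 in RNAi heads, and 8.19 and 8.13 in control heads. All 4 arrays of the altered genotypes were above both control arrays. Its log2 differences from control were 0.38 ± 0.10 in OE heads (limma, adjusted p = 0.0838) and 0.43 ± 0.10 in RNAi heads (0.0579), in comparisons that share the control arrays. The second of these passed under 5 of the 14 alternatives run, among them without either OE array (0.0416 and 0.0421). It missed when an RNAi array (0.224 for ZT15, 0.134 for ZT3) or a control array (0.354 for ZT15, 0.206 for ZT3) was dropped.

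*bt*, the projectin gene, whose protein links the Z-disc to the thick filament, read 11.03 and 10.99 in OE heads, 11.12 and 11.07 in RNAi heads, and 11.40 and 11.00 in control heads at ZT15 and ZT3. Its control ZT15 array was the highest and the other 5 lay within 0.13 log2 units of each other. *Strn-Mlck*, a titin-like kinase gene, read 9.80 and 9.46, 9.76 and 9.63, and 9.52 and 9.48 in the same order of genotypes and times at its brighter probe set, and its OE arrays spanned all the others. *sls*, which encodes the titin-like protein Sallimus, had lower signal in OE than in control heads at all 3 probe sets at both times (log2 differences of -0.55 to -0.20), and none passed. At its brightest probe set it read 8.35 and 7.91 in OE heads, 7.78 and 8.10 in RNAi heads, and 8.55 and 8.34 in control heads.

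**Figure D2:**
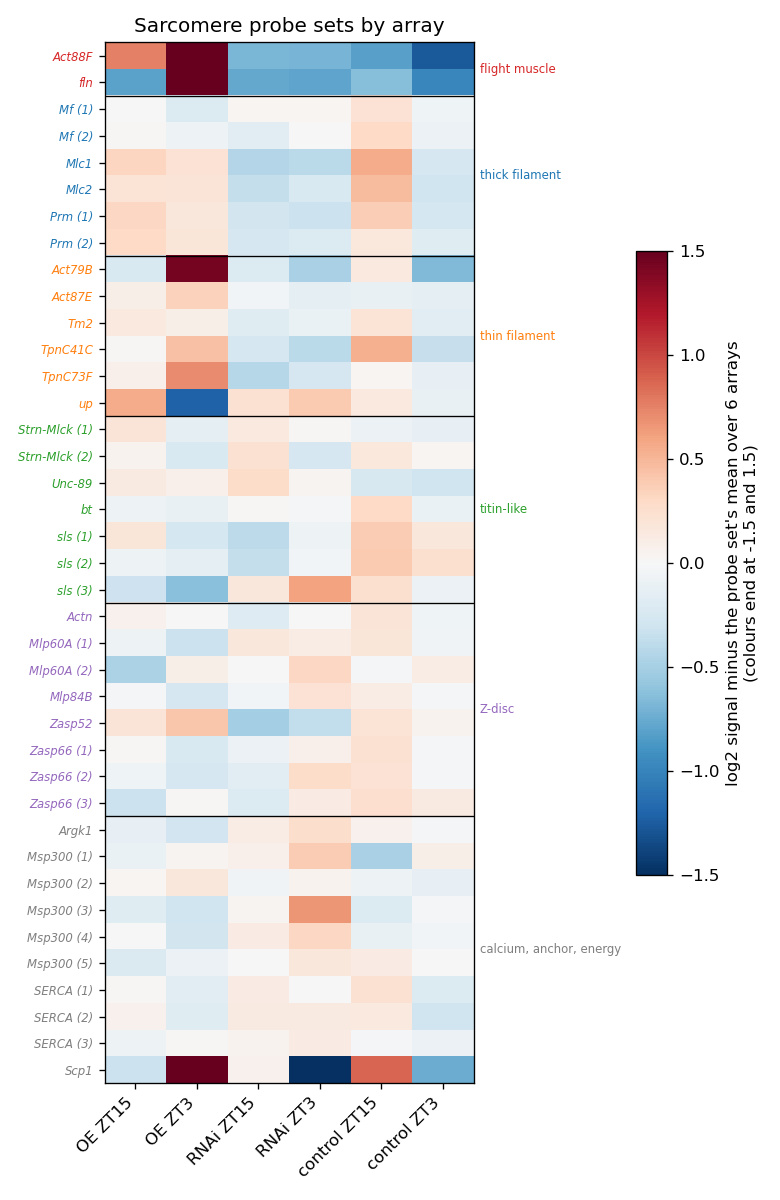
Log2 signal of the 39 member probe sets minus each probe set's own mean over the 6 arrays, grouped by role, with numbers in brackets for genes with several probe sets and colours that end at -1.5 and 1.5. The OE ZT3 column holds most of the strongest colours (*Act88F*, *fln*, *Act79B* and *Scp1* high, *up* low), and the control ZT15 column is above the mean in most rows of the filament, titin-like and Z-disc groups.

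In RNAi heads 1 member fell, the Z-disc gene *Zasp52*, and most thick filament, thin filament and Z-disc probe sets were below control at ZT15. Much of the latter was seen in OE heads too. Below control at ZT15 were 26 of 39 members in RNAi and 28 of 39 in OE heads, with medians of -0.15 and -0.17. Over all probe sets both medians were 0.01. The counts for RNAi and OE were 6 and 5 of 6 thick filament, 4 and 3 of 6 thin filament, and 7 and 8 of 8 Z-disc probe sets. *Zasp52* encodes a PDZ and LIM domain protein that binds alpha-actinin and is needed for Z-disc assembly. It read 11.24 at ZT15 and 11.46 at ZT3 in OE heads, 10.53 and 10.68 in RNAi heads, and 11.25 and 11.10 in control heads. Both RNAi arrays lay below all 4 others, while OE and control arrays overlapped. Its mean was 10.61 ± 0.11 in RNAi heads and 11.17 ± 0.10 in control heads (SD, n = 2 each), a log2 difference of -0.57 ± 0.11 (SE, 95% interval -0.85 to -0.29) or 1.48-fold lower (limma, adjusted p = 0.0441). That was 1 of the 39 members, against 8.62% of all probe sets, with 6 members (2 higher, 4 lower), against 30.7% of all, at an unadjusted p under 0.05. The call was lost without the RNAi ZT15 array (-0.51, adjusted p = 0.162), the RNAi ZT3 array (-0.63, 0.130), the control ZT15 array (-0.40, 0.263) or the control ZT3 array (-0.73, 0.119), and the adjusted p was 0.0651 without the intensity trend, 0.0530 without the time term, 0.0504 with quantile normalization repeated and 0.0567 with the arrays centred on ribosomal protein genes.

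The myosin light chains, which bind the lever arm of the myosin head, followed 1 pattern. *Mlc1*, the alkali light chain, read 11.63 at ZT15 and 11.53 at ZT3 in OE heads, 10.87 and 10.91 in RNAi heads, and 11.87 and 11.06 in control heads. *Mlc2*, the regulatory light chain, read 10.41 and 10.40, 9.85 and 9.98, and 10.68 and 9.91 in the same order. For *Mlc1* both RNAi arrays were the lowest of the 6, and for both genes the control ZT15 array was the highest and lay well above the control ZT3 array.

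The differences of RNAi from control followed from that spread. *Mlc1* was 2.0-fold lower at ZT15 and 1.11-fold lower at ZT3, and the mean log2 difference of -0.57 did not pass (adjusted p = 0.139). For *Mlc2* the log2 difference was -0.83 at ZT15 and 0.07 at ZT3 (mean -0.38, adjusted p = 0.307). All 6 thick filament probe sets were lower in RNAi than in control heads at ZT15, with a median of -0.55, and at ZT3 3 were lower and 3 higher with a median of 0.02. The medians at ZT15 and ZT3 were -0.37 and 0.03 over 6 thin filament and -0.34 and 0.13 over 8 Z-disc probe sets. They were -0.09 and 0.07 over 7 titin-like and 0.03 and 0.26 over 10 calcium, anchoring and energy probe sets. Over all probe sets the medians were 0.01 and 0.02.

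At ZT15 alone 8 members were at least 1.5-fold lower in RNAi heads than in control heads, against 7.75% of all probe sets. They were probe sets of *Mlc1*, *Mlc2*, *Prm*, *Scp1*, *TpnC41C* and *Zasp52* and 2 of *sls*. At ZT15 and ZT3 alike 1 member (*Scp1*, with log2 differences of -0.81 and -0.77) was apart by that margin the same way, against 6.53% of all probe sets. The *Scp1* difference, -0.79 ± 0.90, did not pass with 6 arrays (limma, adjusted p = 0.596), and passed at the same size without the OE ZT15 array or the OE ZT3 array (0.00298 and 0.00329). It was 0.08 without the RNAi ZT3 array and 0.12 without the control ZT15 array. The median difference of RNAi from control was -0.04 over the members and 0.01 over all probe sets.

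**Figure D3:**
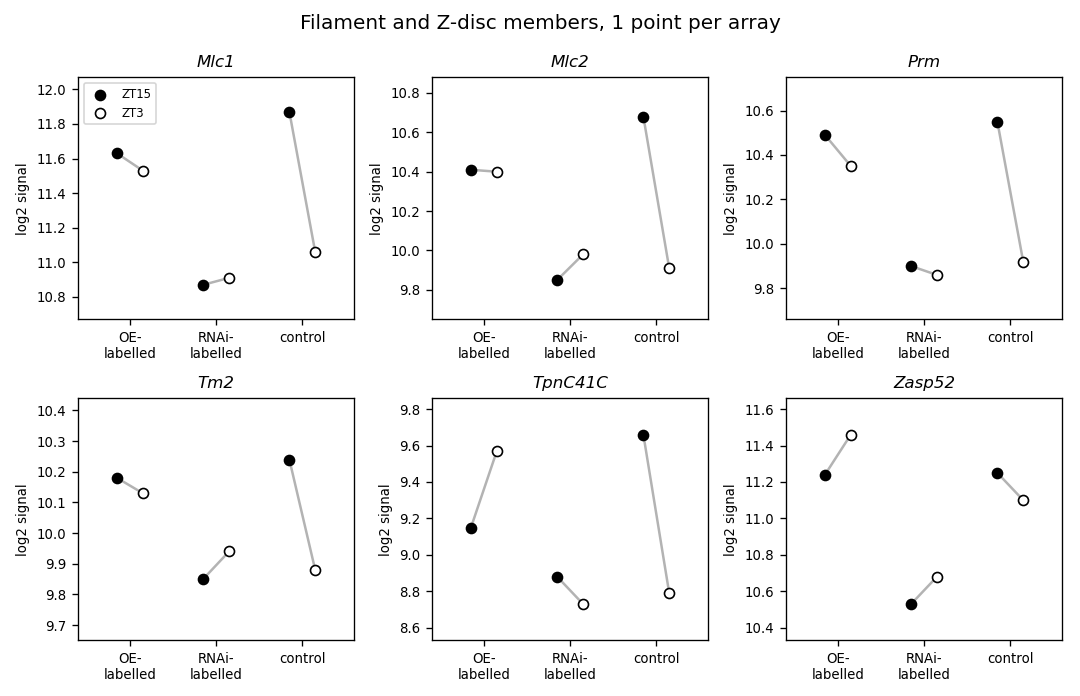
Log2 signal of 6 filament and Z-disc members on each array, drawn as for the actins, with the brighter probe set shown for *Prm*. *Mlc1*, *Mlc2*, *Prm*, *Tm2* and *TpnC41C* are highest on the control ZT15 array, and *Zasp52* is lowest on both RNAi arrays.

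The direct comparison of OE with RNAi heads gave 6 called members of 39, 3 higher and 3 lower, against 25.8% of all probe sets, and 11, against 41.5% of all, at an unadjusted p under 0.05. The control arrays enter it only through the shared estimate of spread. *Act88F* was 5.36-fold higher in OE heads (2.42 ± 0.57, adjusted p = 0.0344), with 1.44 at ZT15 and 3.40 at ZT3. *Zasp52* was 1.67-fold higher (0.74 ± 0.11, adjusted p = 0.0111), by 0.71 at ZT15 and 0.77 at ZT3. *Prm*, which encodes paramyosin, the core protein of invertebrate thick filaments, was 1.39-fold higher at its dimmer probe set (0.47 ± 0.12, adjusted p = 0.0429). Like that of *Act87E*, this probe set carries the mark for probe sets that match several transcripts.

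At that dimmer probe set *Prm* read 8.82 at ZT15 and 8.70 at ZT3 in OE heads, 8.27 and 8.31 in RNAi heads, and 8.68 and 8.34 in control heads, so that both OE arrays were above all 4 others. The brighter *Prm* probe set read 10.49 and 10.35, 9.90 and 9.86, and 10.55 and 9.92 in that order and differed by 0.54 between OE and RNAi without passing (adjusted p = 0.0580). Thus both *Prm* probe sets pointed the same way. *Mlc1*, at 0.69 (adjusted p = 0.0649), and *TpnC73F*, at 0.73 (0.0504), were likewise above RNAi at both times without passing.

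Lower in OE than in RNAi heads were 1 of the 3 *sls* probe sets, *Argk1* and *Mlp60A*. The *sls* probe set read 6.59 at ZT15 and 6.27 at ZT3 in OE heads, 7.06 and 7.50 in RNAi heads, and 7.14 and 6.81 in control heads. Both OE arrays were the lowest of the 6, and the difference from RNAi was -0.85 ± 0.22 (limma, adjusted p = 0.0427). The other 2 *sls* probe sets differed by 0.19 and 0.08 in the other direction without passing, so the probe sets of this gene disagreed.

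*Argk1*, which encodes arginine kinase, the enzyme that buffers ATP in insect muscle and nerve, read 12.19 at ZT15 and 12.03 at ZT3 in OE heads, 12.42 and 12.58 in RNAi heads, and 12.38 and 12.28 in control heads. Its difference was -0.40 ± 0.10 (limma, adjusted p = 0.0402), with the OE arrays the lowest. *Mlp60A*, a muscle LIM protein gene, read 11.90 and 11.65, 12.14 and 12.08, and 12.15 and 11.92 in the same order at its brighter probe set. Its difference was -0.34 ± 0.08 (limma, adjusted p = 0.0364), and its OE arrays were the lowest of the 6, the higher of them just below the control ZT3 array.

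Of these 6 calls, that of *Zasp52* held under 13 of the 14 alternatives run, the exception being without the RNAi ZT3 array (adjusted p = 0.0527). The *Act88F* call was lost without either RNAi array or either control array, and its difference was 1.33 without the OE ZT3 array. Leaving out any of the 6 arrays ended the *Prm* call (0.0650 to 0.178), and all but the RNAi ZT15 array ended that of *Mlp60A* (0.0588 to 0.202). Those of *sls* and *Argk1* were lost without the OE ZT3 (0.135 and 0.189), RNAi ZT3 (0.145 and 0.194), control ZT15 (0.0892 and 0.0889) or control ZT3 array (0.0883 and 0.0885). With only OE and RNAi arrays in the fit, all but the *Zasp52* call were lost (0.0626 to 0.0894). Without the intensity trend those of *Prm*, *Mlp60A* and *Argk1* were lost (0.0539, 0.0704 and 0.0686), without the time term those of *Prm* and *Mlp60A* (0.0666 and 0.108), and with ribosomal centring that of *Prm* (0.101). The median difference over the members was -0.07, and -0.03 over all probe sets. Without a model 3 members (*Act88F*, *Mlc1* and *Zasp52*), all higher in OE heads, differed by 1.5-fold or more the same way at ZT15 and at ZT3, against 12.3% of all.

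**Figure D4:**
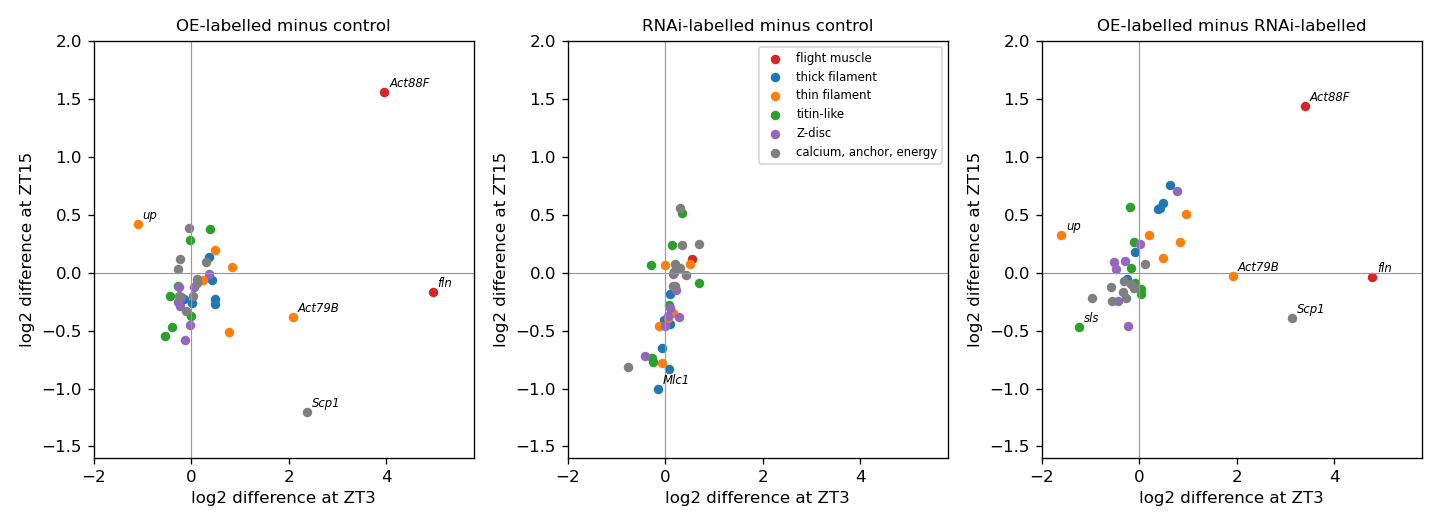
Log2 differences between genotypes for each member probe set, at ZT3 on the horizontal and ZT15 on the vertical axis, coloured by role and named where 1 of them is 1 or more. Most points lie near the origin in all 3 panels, *Act88F* lies far out in the same direction at both times and *Scp1* in opposite directions in the first panel, and *fln*, *Act79B* and *Scp1* lie far to the right at ZT3 in both panels with OE-labelled heads. The first 2 panels share the control arrays.

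Between night and day, most sarcomere probe sets were higher at ZT15 in control heads and not in RNAi heads, but no member passed over the 3 genotypes. By limma 0 of 39 members passed between ZT15 and ZT3, against 0.542% of all probe sets, and 5 (3 higher, 2 lower at ZT15), against 1521 of all 10893, did at an unadjusted p under 0.05. Counting any difference without a test, 25 of 39 were higher at ZT15 in OE heads, against 51.7% of all probe sets, 14 of 39 in RNAi heads, against 43.4%, and 35 of 39 in control heads, against 46.5%. The median differences between ZT15 and ZT3 were 0.07, -0.12 and 0.24 over the members in OE, RNAi and control heads, against 0.01, -0.03 and -0.02 over all probe sets. Each of these comparisons rests on 1 array against 1, so it has no replicate check, and whether the genotypes differed in it could not be tested. The count in control heads was 35 of 39 also with quantile normalization repeated and with centring on ribosomal protein genes, where 52.1% and 57.4% of all probe sets were higher at ZT15. The middle 18S ribosomal RNA control probe set was higher at ZT15 than at ZT3 in control heads too (10.59 and 8.94). It read 8.79 and 7.36 in OE heads and 10.77 and 10.68 in RNAi heads, and its bearing on these counts was not tested.

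At least 1.5-fold higher at ZT15 in control heads were 6 members, against 1.86% of all probe sets, and 0 were lower, against 3.33%. These were *Scp1* (1.62), *TpnC41C* (0.87), *Act79B* (0.81), *Mlc1* (0.81), *Mlc2* (0.77) and the brighter *Prm* probe set (0.63). In RNAi heads 1 member (*Scp1*, 1.57) was higher by that margin, against 1.6% of all, and 1 (a *Msp300* probe set, -0.62) was lower, against 2.59%. In OE heads 5 were lower at ZT15 by that margin, against 4.41% of all, namely *fln* (-4.78), *Act88F* (-1.96), *Scp1* (-1.96), *Act79B* (-1.66) and *TpnC73F* (-0.64), and 1 (*up*, 1.78) was higher, against 2.72%.

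By role, the night-day difference in control heads had a median of 0.50 over 6 thick filament, 0.31 over 6 thin filament, 0.19 over 8 Z-disc, 0.15 over 7 titin-like and 0.08 over 10 calcium, anchoring and energy probe sets. In OE heads the medians of these groups in the same order were 0.11, -0.33, 0.13, 0.28 and 0.02. In RNAi heads they were -0.04, 0.01, -0.22, 0.05 and -0.14. The control ZT15 array held the highest value of the 6 for 16 of 39 members, against 17.1% of all probe sets. Because the control ZT15 array also enters each comparison with control at ZT15, the differences from control at that time and the night-day differences in control heads are not separate observations.

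**Figure D5:**
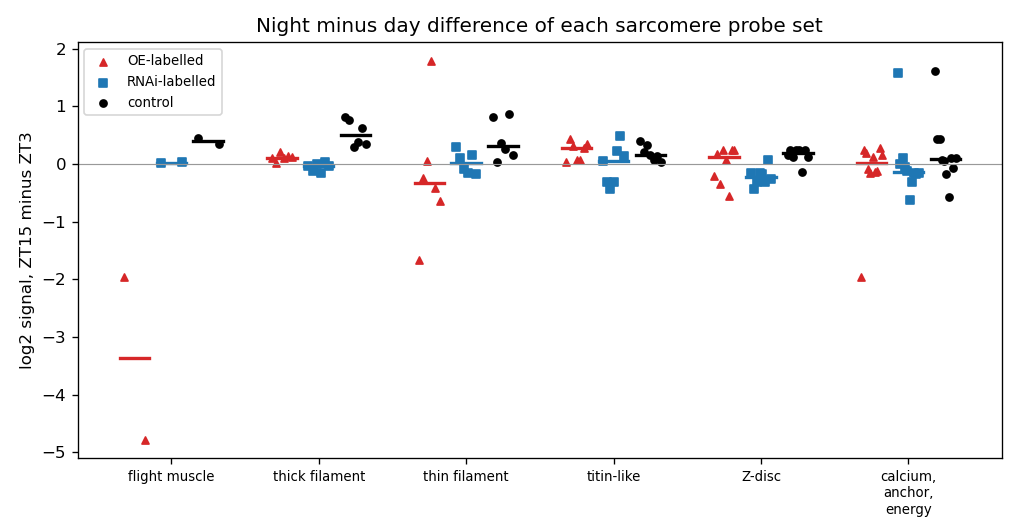
Log2 signal at ZT15 minus that at ZT3 for each member probe set, grouped by role, with OE-labelled heads as triangles, RNAi-labelled heads as squares, control heads as circles and a bar at each median. Control points lie above 0 in all but 4 cases, while 14 of 39 RNAi points lie above 0, *Scp1* furthest, and the flight muscle points of OE heads reach -4.78.

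*Scp1* had the widest swing with time outside OE heads. Its ZT15 minus ZT3 difference was -1.96 in OE heads, 1.57 in RNAi heads and 1.62 in control heads, so that the mean over the 3 genotypes was 0.41 ± 0.73 (limma, adjusted p = 0.825). Without the OE ZT15 or the OE ZT3 array that difference was 1.60. It then came from the RNAi and control arrays alone, since a lone OE array gives no difference with time. Leaving out either RNAi array gave -0.17 and either control array -0.19.

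Myofilin (*Mf*), a thick filament protein, read between 12.82 and 13.24 at its brighter probe set, and *Tm2*, a tropomyosin gene, between 9.85 and 10.24, both highest on the control ZT15 array. The Z-disc genes *Actn* (alpha-actinin), *Zasp66* and *Mlp84B* spanned at most 0.58 log2 units over the 6 arrays at any probe set. *SERCA*, the calcium pump of the sarcoplasmic reticulum, read between 12.27 and 12.70 at its brightest probe set. *Msp300*, a giant nesprin that anchors muscle nuclei, had 5 probe sets that spanned 0.30 to 0.96. None of these passed in any of the 4 comparisons.

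Other muscle genes were read from lists chosen with earlier results known, with the same fit over all probe sets. Each gene of these lists, and of the cell type lists above, was read at its brightest probe set only. Where a gene had several, such as *mbl* with 6, whether the others moved alike was not examined. Their counts are to be read against the shares of all probe sets called, 6.06% for OE and 8.62% for RNAi against control and 25.8% between OE and RNAi. Of 6 regulators of muscle fate and splicing, *slou*, a muscle identity homeobox gene, rose by 0.66 in RNAi heads (limma, adjusted p = 0.0373), and no other passed against control. Between OE and RNAi *slou* and *mbl*, the muscleblind splicing factor gene, were lower in OE heads, with log2 differences of -0.80 and -1.20. Of 18 assembly and chaperone genes, *jbug*, a filamin-family gene, rose in both OE (0.59) and RNAi heads (0.47), with shared controls. *stv*, which encodes the co-chaperone Starvin that maintains filamin at the Z-disc, fell by 0.92 in RNAi heads, and *CalpB*, a calpain protease gene, fell by 0.63. Between OE and RNAi 5 of the 18 were higher in OE heads and 0 lower, a share close to the 25.8% over all probe sets, with *cher*, the muscle filamin gene, at 0.93 and *stv* at 0.78.

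Of 19 attachment and basement membrane genes, 1 rose in OE heads (*vkg*, a collagen IV chain, 0.68), and 4 fell in RNAi heads, among them the laminin gene *LanA* (-0.87) and *Tig* (-0.71), which encodes the integrin ligand Tiggrin of muscle attachment sites. Between OE and RNAi 5 were higher in OE heads, with *LanA* at 1.33 and *vkg* at 1.18, and 1, *wech*, was lower, together a share near the 25.8% over all probe sets. Blood cell markers moved alongside, with 8 of 11 higher in OE than in RNAi heads and 0 lower, and 1 gene, *vkg*, is in both lists. Their part in the attachment list was not tested.

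Excitation and energy genes gave mixed directions. *Ca-alpha1D*, the muscle and neuronal L-type calcium channel gene, rose by 1.21 in RNAi heads (limma, adjusted p = 0.00818) and was lower in OE than in RNAi heads (log2 difference of -1.58). *RyR*, the calcium release channel of the sarcoplasmic reticulum, rose by 0.46 in RNAi heads (0.0482). *slo*, a calcium-activated potassium channel gene, rose by 0.86 in OE heads (0.0215). Of 15 such genes 1 rose in OE and 2 in RNAi heads, and between OE and RNAi 2 were higher and 3 lower, shares near those over all probe sets. Many of them act in neurons too, and 5 of 10 neuron markers were lower in OE than in RNAi heads. *para* is in both lists, and the part of neurons in the excitation list was not tested. Of 10 energy genes, *Treh*, the trehalase gene, fell by 0.54 in OE heads (0.0300), and between OE and RNAi 1 was higher and 2 were lower. Of 5 non-muscle cytoskeleton genes, *tsr*, which encodes the actin-severing protein cofilin, was higher in OE than in RNAi heads (0.52, adjusted p = 0.00984). *tsr* is in the assembly list too, so this call is already counted there, and *chic* is also in both lists.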

How the data were processed

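The authors deposited log2 signals per probe set for 6 arrays. The submitters' processing notes name Affymetrix Expression Console as the software. Its version and the summarisation method are not given in the sources used here, and the log2 scale was read from the values. Array medians were 7.35 to 7.42, and every deposited probe set reached at least 4.00 on some array, so dim ones appear to have been left out. Genes were named from the platform annotation (9286 probe sets with 1 gene, 276 with several, 1331 with none listed, 63 controls), with symbols updated through RefSeq Release 6 for 9260.

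limma 3.58.1 in R 4.3.3 fitted genotype and time as additive terms with an intensity trend to all 10893 non-control probe sets (2 residual degrees of freedom, prior 3.29), two-sided, with Benjamini-Hochberg adjustment over all and a threshold of 0.05. The fit was also run on simulated data with independent noise and the same shift on both OE arrays. That simulation held no outlying array such as the OE ZT3 array, so it does not show how the fit handles one. A fold is 2 to the power of a log2 difference. With 1 array per genotype and time their interaction was not tested, and nothing says that arrays came from separate cultures, so p-values cover these 6 arrays, whose number limits the precision. The members, lists and tests were chosen with earlier results of these data known. All members are named, with values on every array for flight muscle members, the brightest probe set of each actin, troponin C, myosin and titin-like gene and every called probe set. *Scp1*, *up* and the brighter *Prm* probe set were added after their values were seen. Called genes of other lists are named, up to 6 per list and comparison, with some left out for length. Of the gene lists for other cell types, fat body, glia and the female list were also computed: 0 of 10, 1 of 7 and 5 of 9 genes were highest on the OE ZT3 array, as were 7 of 11 hemocyte genes. Over all probe sets that share was 24.0%. No gene of the male list was used. Alternatives were other filters, 1 probe set per gene, no trend, no other term, only the genotypes compared, a repeated quantile normalization, centring on 40 ribosomal protein probe sets, fold thresholds of 1.3 and 2, and leaving out each array in turn. Python 3.11.15 and matplotlib 3.10.9 drew the figures. No sequences were used here.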

Additional observations from a re-analysis of the deposited data

Results flagged for a closer look

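*Act79B* and *Scp1* moved in opposite directions between genotypes or times. *Act79B* was lower at ZT15 than at ZT3 by a log2 difference of -1.66 in OE heads, and higher by 0.81 in control heads. The difference of *Scp1* between OE and control heads was -1.20 at ZT15 and 2.38 at ZT3. Its ZT15 minus ZT3 difference was -1.96 in OE heads, 1.57 in RNAi heads and 1.62 in control heads. Each value rests on 1 array against 1, and none of these differences between groups was tested.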

How the results depend on the processing

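Between OE and control, the count of called members was 0, and 1 with dim probe sets left out (at the 40th or the 20th percentile) or with centring on ribosomal protein genes, the 1 being *Act88F*, whose mean cleared the 40th percentile only through its OE arrays. It was 0 to 6 with each array left out, with 6 without the OE ZT15 array, 2 without the OE ZT3 array and 0 without any other. Between RNAi and control it was 1, and 2 at either filter, 5 with only those 2 genotypes in the fit, 0 without the trend, without the time term, with quantile normalization again or with ribosomal centring, and 0 to 5 with each array left out, with 4 without the OE ZT15 array, 5 without the OE ZT3 array and 0 without any other. Between OE and RNAi it was 6, and 3 without the trend or with only those 2 genotypes, and 0 to 14 with each array left out, with 14 without the OE ZT15, 2 without the OE ZT3, 0 without the RNAi ZT3 and 3 without either control array. For time it was 0, and 0 to 1 with each array left out, the 1 being *Scp1* without either OE array. At 1.3-fold the members apart at both times numbered 3 in OE heads, 2 in RNAi heads and 8 between OE and RNAi, and at 2-fold the last 2 comparisons gave 0 and 1. In an alternative chosen after seeing the data, the ZT15 arrays alone gave 2 (OE against control) and 8 (RNAi against control), and the ZT3 arrays alone gave 7, 3 and, between OE and RNAi, 11.

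The median difference of the members, -0.03 between OE and control, was 0.121 with 1 probe set per gene and -0.182 to 0.057 with each array left out. Between OE and RNAi it was -0.065, 0.189 with 1 probe set per gene, -0.188 with ribosomal centring and -0.133 to 0.097 with each array left out. That centring moved the median of the OE ZT3 array by -0.128. The cause of these shifts was not tested.

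Some differences changed sign when 1 array was left out. Over the fits without 1 array, OE minus control was -0.09 to 4.87 for *fln*, -0.25 to 1.96 for *Act79B*, -1.21 to 0.52 for *up* and -1.19 to 2.36 for *Scp1*. OE minus RNAi was -0.12 to 4.84 for *fln* and -0.40 to 3.15 for *Scp1*. RNAi minus control was -1.70 to 0.12 for *Scp1*, and its ZT15 minus ZT3 difference -0.19 to 1.60. The sign of *fln*, *Act79B* and *up* turned without the OE ZT3 array. *Scp1* turned there too, and gave -0.32 (OE minus control) without the control ZT3 array, 0.08 (RNAi minus control) without the RNAi ZT3 array and -0.17 with time without either RNAi array. The labels give no replicate numbers to pair arrays by. The arrays of different genotypes are paired by time, which is a term of the fit. With 2 arrays per genotype a fit without 1 of them takes the spread of the lone array from the other genotypes.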
